A study of Drosophila melanogaster with 58 samples.

Results

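Alpha-beta neurons of the Drosophila melanogaster mushroom body were compared between 30 h after pupa formation, while their axons were growing, and adult flies taken 3 to 5 days after eclosion. Every raw-count column that the authors deposited for alpha-beta neurons at these stages was used, which made 5 pupal and 5 adult libraries, 10 of the 58 libraries in the series. Per the labels, both groups came from brains of flies reared at 25 °C, with males and females taken at random, and 1000 GFP-positive cells were sorted for each library. The RNA was primed with oligo-dT and amplified by the Smart-seq2 method, and the cDNA was cut and tagged with Nextera XT. The genotype, the driver line and the GFP reporter that marked the cells are not given in the sources used here. Nothing in the labels says that the libraries of a group came from separate dissections. The p-values therefore measure only a spread between libraries, which may be technical. In the main fit that spread was estimated within the groups of all 58 libraries, not from the 10 compared libraries alone.

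The mushroom body is the brain centre for olfactory learning in flies, and its intrinsic neurons are called Kenyon cells. Alpha-beta neurons are the last of the Kenyon cell types to be born, and their axons branch to form a vertical and a medial lobe, where they release acetylcholine onto output neurons while dopamine neurons signal reward or punishment. A growing axon needs actin and tubulin turnover, guidance receptors and new membrane and protein, whereas an adult neuron needs synapses, ion channels, transmitter receptors and a steady energy supply.

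Total counts were 7997417 to 16630101 in the 30 h libraries and 4403619 to 14552844 in the adult libraries. Adult libraries detected fewer genes, 5266 to 7464 against 7417 to 7822, and this held after all libraries were thinned to the lowest total (5266 to 7269 against 7328 to 7613). Adult libraries also resembled each other less, with Spearman correlations across genes of 0.729 to 0.835 within adults and 0.873 to 0.912 within the 30 h group, and an adult library was about as close to a 30 h library (0.707 to 0.820, median 0.777) as to another adult one (median 0.776). The cells carried the markers of Kenyon cells at both stages: the summed level of 10 such genes was 2739 to 6115 CPM (counts per 1000000 counts, scaled by TMM factors for library composition) at 30 h and 3548 to 7306 CPM in adults. Markers of other cells moved between the groups. The 12 glial markers summed to 36.2 to 183 CPM at 30 h and 556 to 2426 CPM in adults, mostly through Gs2 (a glutamine synthetase, mean 33.1 and 994 CPM). Of the 12, 8 had a log2 fold change above 0 (median 0.48), and only Gs2 was called. The defining glial transcription factor repo was at 0.540 CPM at 30 h and 0 in adults. The 10 neuroblast and progenitor markers summed to 31.3 to 261 CPM at 30 h and 0 to 24.3 CPM in adults, and 10 markers of other neuron types to 198 to 668 and 672 to 3535 CPM. Of the 9 tested in the latter list, Gad1 was called higher and DAT lower. The 10 photoreceptor markers summed to 111 to 327 CPM at 30 h and 502 to 1231 CPM in adults. Of 8 tested, the phospholipase C gene norpA (99.5 ± 56.2 to 527 ± 250.2 CPM, SD, n = 5 each) and the diacylglycerol kinase gene rdgA (77.5 ± 31.1 to 278 ± 102 CPM) rose and the transcription factor gl fell from a mean of 1.51 CPM to 0, a call lost in 8 of 10 fits that left out a library, while the opsin ninaE had no count in 9 of the 10 libraries. The part of these markers, of depth and of the number of detected genes in the differences described here was not tested. In bulk libraries, fewer cells of a type and less RNA per cell cannot be told apart.

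Alpha-beta neurons at 30 h and in adults differed in whole groups of genes. Genes of the actin cytoskeleton, ribosomes, protein folding, the secretory pathway and the proteasome were lower in adults. Genes of synaptic vesicles, transmitter synthesis and receptors, ion channels and pumps, cAMP and calcium signalling, glycolysis and the respiratory chain were higher. For some of these the summed levels of the libraries overlapped. The sums for cAMP, calcium and memory signalling were 15595 to 20462 CPM at 30 h and 17951 to 35506 CPM in adults. Those for nuclear genes of the respiratory complexes were 18905 to 30869 and 29150.0 to 60367 CPM, and for mitochondrially encoded genes 2557 to 9517 and 5649 to 37372 CPM. Of 10072 genes tested with edgeR across all 58 libraries, 472 (4.69%) were called higher and 786 (7.8%) lower in adults at an adjusted p under 0.05, and these shares are the background for every list described here. In 1137 genes (11.3%) all 5 adult libraries lay on one side of all 5 libraries from 30 h. Genes given library by library below were taken mainly from called genes without overlap. The separation of their groups therefore follows from that choice and is given as a description only. The balance of directions depended on the fit: with only the 10 libraries, which kept 6728 genes, 471 (7%) were called higher and 287 (4.27%) lower. In that smaller fit 385 of the 472 higher calls and 284 of the 786 lower calls were made again, while 38 and 155 were not tested in it. The authors' deposited table for the same comparison marks 795 genes as higher in adults and 1418 as lower, of which 452 and 780 were among the calls made here. The median log2 fold change over all genes tested was -0.15, with genes at 0 in all libraries of a group placed at the bound set by 3 counts per library.

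**Figure D1:**
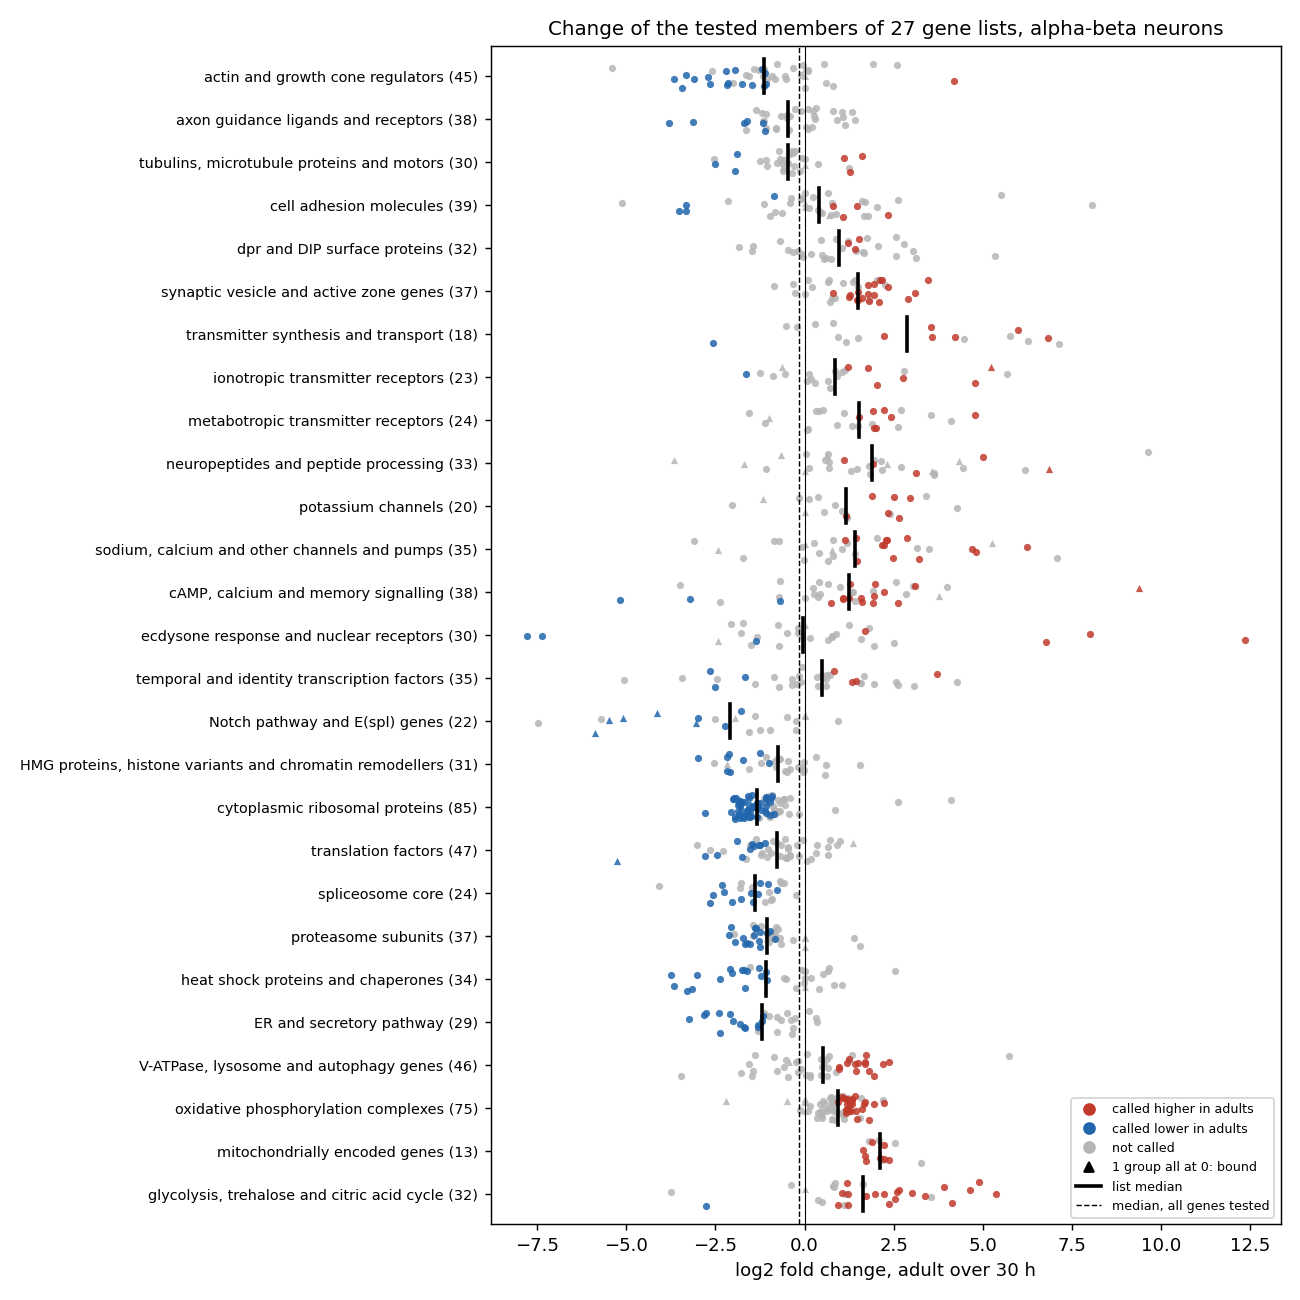
Log2 fold change (adult over 30 h, edgeR) of every tested member of 27 functional gene lists, 1 point per gene, coloured where the gene was called at an adjusted p under 0.05. Bars are list medians, and triangles are genes at 0 in all libraries of a group, drawn at their bound. Lists for synapses, channels and glycolysis lie mostly right of 0, and lists for actin regulators, ribosomal proteins, the proteasome and the secretory pathway mostly left of 0.

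Genes that build and remodel the actin cytoskeleton of the growth cone fell as a group. Of 45 actin and growth cone regulators tested, 16 were lower in adults and 1 was higher, with a median log2 fold change of -1.14. Their summed level was 26569 to 27605 CPM in the 30 h libraries and 7185 to 10823 CPM in the adult libraries, so that the adult median was 0.317 of the pupal one. Act42A, a cytoplasmic actin, stood at 4461, 5064, 4674, 4027 and 5466 CPM in the 30 h libraries and at 686, 262, 200.2, 203 and 511 CPM in adults. All adult libraries were far below the lowest pupal one, a log2 fold change of -3.67 (with SE 0.36 and edgeR adjusted p = 1.36e-11). The other cytoplasmic actin, Act5C, fell from 10120.2 ± 1087 to 2991 ± 979.8 CPM (SD, n = 5 each). The coding sequences of these actins are near-identical, so reads may have been split between them. For tsr, the cofilin that severs actin filaments, the 30 h values were 2116, 2139, 1862, 1714 and 2449 CPM and the adult values 371, 272, 101, 100.0 and 178 CPM. Here too the groups were apart in every library (log2 fold change -3.33, SE 0.36, edgeR adjusted p = 2.59e-10). Among other regulators, chic (profilin) fell from 2069 ± 602 to 465 ± 129 CPM, sn (the actin bundler fascin) from 715 ± 176 to 114 ± 31.6 CPM and capt, the cyclase-associated protein that recycles actin, from 276 ± 62.1 to 31.7 ± 21.7 CPM (SD, n = 5 each). The small GTPases Rac1 and Rho1, which steer actin assembly and contraction, fell with log2 fold changes of -1.15 (SE 0.23) and -1.48 (SE 0.20). The single member that rose was sif, an exchange factor for Rac, with 43, 20.2, 37.6, 9.26 and 112 CPM at 30 h and 1754, 698, 605, 206 and 796 CPM in adults. Its lowest adult library was above its highest pupal library, and the log2 fold change was 4.19 (with SE 0.75 and edgeR adjusted p = 3.79e-05).

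Among 30 tubulins, microtubule proteins and motors, 3 fell and 3 rose (5 fell without adult replicate 3), and their summed level went from 16586 to 21108 CPM at 30 h to 8545 to 11272 CPM in adults. The members that fell included the main tubulin subunits. The beta-tubulin betaTub56D had 7005, 7201, 6129, 4396 and 6628 CPM at 30 h and 1441, 913, 886, 1207 and 1089 CPM in adults. No adult library came near the pupal range (log2 fold change -2.50, SE 0.20, edgeR adjusted p = 4.48e-14). The alpha-tubulin alphaTub84B fell from 6237 ± 1127 to 1688 ± 211 CPM (SD, n = 5 each, log2 fold change -1.89). Tubulin paralogs share sequence, so their reads may also have been split. The members that rose were futsch, the microtubule-associated MAP1B homolog of axons and synapses, at 501 ± 204 and 1535 ± 565 CPM, ringer, a microtubule polymerisation-promoting protein, at 247 ± 98.4 and 594 ± 199 CPM, and the synaptic vesicle kinesin unc-104, at 398 ± 139 and 851 ± 508 CPM (SD, n = 5 each). The call for unc-104 was lost in 3 of the 10 leave-one-out fits and in the fit with 10 libraries, at an edgeR adjusted p of 0.101.

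Of 38 axon guidance ligands and receptors, 6 fell and none rose (median log2 fold change -0.47), and the summed level of the list overlapped between the groups, at 4489 to 6947 CPM and 3430.0 to 6318 CPM. With only the 10 libraries, 1 of the 6 falls was called. That gene was Sema2b, a secreted semaphorin, at 524, 482, 580.3, 752 and 365 CPM at 30 h and 113, 41.5, 133, 20.4 and 1.85 CPM in adults. The adult libraries were spread widely but all lay below the pupal ones (log2 fold change -3.12, SE 0.48, edgeR adjusted p = 2.03e-06). The Wnt co-receptor otk was at 124 ± 66.3 CPM at 30 h and 8.88 ± 9.69 CPM in adults, with 2 adult libraries at 0, and its log2 fold change of -3.80 (with SE 0.93 and edgeR adjusted p = 0.00297) had an adjusted p of 0.0980 in the smaller fit. Drl-2, a Ryk-family Wnt receptor, fell from 147 ± 45.1 to 45.3 ± 26.6 CPM (SD, n = 5 each). The call for Dscam1, the homophilic receptor by which sister branches separate, was lost in 3 of the 10 fits that left out a library (log2 fold change -1.17, edgeR adjusted p = 0.0201).

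Adhesion molecules moved in both directions. Of 39 tested, 4 rose and 4 fell, and the summed level was higher in adults, at 8559 to 13518 CPM against 5752 to 7057 CPM. The rises numbered 2 without 30 h replicate 2 or 3, where kek1 and Bsg lost their calls (in 4 and 7 of the 10 fits that left out a library). Fas1, a fasciclin-domain adhesion protein, had 1279, 1116, 1118, 815 and 613 CPM at 30 h and 5664, 5468, 5585, 4825 and 3258 CPM in adults. The lowest adult library was far above the highest pupal one, and the log2 fold change was 2.33 (with SE 0.22 and edgeR adjusted p = 4.26e-12). Falls were seen for Fas3, a homophilic immunoglobulin protein (335 ± 78.9 to 33.4 ± 25.4 CPM), for Nrt, the membrane protein neurotactin (382 ± 237 to 38.1 ± 44.5 CPM), and for the immunoglobulin protein Lac (169 ± 63.4 to 14.7 ± 16 CPM, SD, n = 5 each). In the fit with 10 libraries Nrt and Lac had edgeR adjusted p-values of 0.0578 and 0.117. Fas2, which labels alpha-beta axons in stained brains, did not pass the test, with means of 364 CPM at both stages. The classical cadherin CadN fell (log2 fold change -0.85, SE 0.25, edgeR adjusted p = 0.0144), a call lost in 1 fit that left out a library and in the smaller fit, where the adjusted p was 0.140.

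The dpr and DIP families are immunoglobulin proteins that pair across synapses. Of 32 members 3 rose and none fell, with a median log2 fold change of 0.96, and with only the 10 libraries 6 rose. Their summed level was 3259.6 to 4164 CPM at 30 h and 4699.5 to 7105 CPM in adults, with no overlap. The call for dpr9 was made in every fit that left out a library (262 ± 125 to 699 ± 272 CPM, log2 fold change 1.41, SE 0.35), whereas dpr14 and dpr1 lost theirs in 4 and 8 of the 10 fits, so that 1 rise was left without adult replicate 1 or 5 or 30 h replicate 3 or 4. Of 21 beat and side proteins, another family of paired surface receptors, 2 rose and 1 fell, but no rise was called without 30 h replicate 1, 2 or 4, 1 without adult replicate 1 or 3 or 30 h replicate 3, and no fall without adult replicate 2 or 4 or 30 h replicate 1. The largest rise was that of beat-VII, from 38.5 ± 25.1 to 356 ± 142 CPM (SD, n = 5 each, log2 fold change 3.21, SE 1.06, edgeR adjusted p = 0.0352), lost in 5 of the 10 fits.

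Synaptic genes rose broadly. Of 37 synaptic vesicle and active zone genes tested, 19 were higher in adults and none was lower, with a median log2 fold change of 1.49, and the fit with 10 libraries gave the same counts. Leaving out each library in turn gave 18 to 20. The summed level was 9600.5 to 13203 CPM at 30 h and 22623 to 43640.2 CPM in adults, a ratio of medians of 3.05. Snap25, a plasma membrane SNARE of vesicle fusion, had 107, 105, 114, 75.9 and 77.4 CPM at 30 h and 805, 718, 1334, 732 and 514 CPM in adults. Every adult library was several times the pupal level (log2 fold change 3.10, SE 0.38, edgeR adjusted p = 8.68e-09). The complexin gene cpx, which clamps and triggers fusion, had 2198, 1827, 1527, 2340.3 and 1529.5 CPM at 30 h and 12157, 6148, 7677, 5302 and 4989.8 CPM in adults. The groups did not overlap, and the log2 fold change was 1.94 (with SE 0.25 and edgeR adjusted p = 3.79e-08).

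The rise covered successive steps of the vesicle cycle. Of the other SNAREs, nSyb rose from 872 ± 169 to 3008 ± 766 CPM and Syx1A from 703 ± 129 to 2702 ± 539 CPM (SD, n = 5 each). The calcium sensor Syt1 went from 503, 491, 498, 619 and 473 CPM to 1628, 1455, 2920.2, 1895 and 1253 CPM. Adult libraries again lay above all pupal ones, and its log2 fold change was 1.82 (with SE 0.31 and edgeR adjusted p = 1.35e-05). The NSF ATPase comt, which takes SNARE complexes apart, rose from 56.1 ± 28.8 to 619 ± 364 CPM, and the active zone scaffold Rbp from 81.8 ± 17.7 to 615 ± 110.5 CPM (SD, n = 5 each). Endocytic genes moved the same way: EndoA (endophilin) had a log2 fold change of 2.33 (SE 0.45) and shi (dynamin) of 2.09 (SE 0.41). The active zone core protein brp was at 439.6 CPM at 30 h and 723 CPM in adults and did not pass the test (edgeR adjusted p = 0.110), nor did synapsin, Syn, at 119 and 249.9 CPM.

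**Figure D2:**
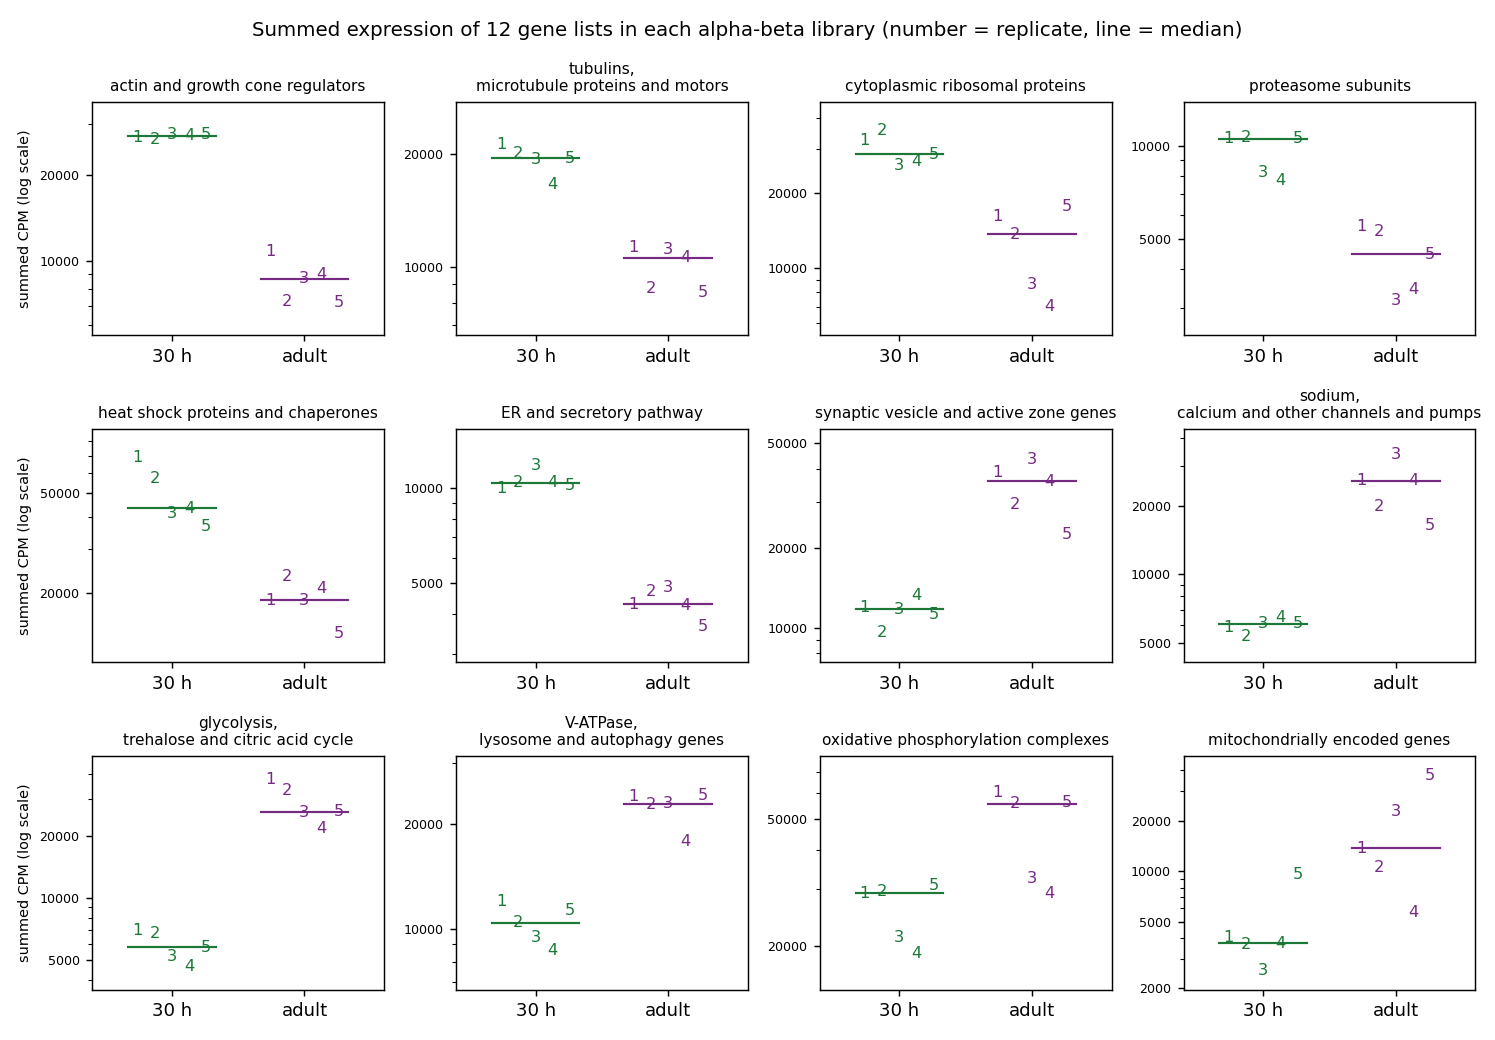
Summed TMM-scaled CPM (log axis) of 12 gene lists in each library, with the 30 h and adult libraries in separate columns and the digit giving the replicate number. Synaptic genes run from 9600.5 to 13203 CPM at 30 h and from 22623 to 43640.2 CPM in adults, whereas actin regulators run from 26569 to 27605 CPM and from 7185 to 10823 CPM.

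Genes for making and loading transmitters were low at 30 h and much higher in adults. Of 18 tested, 6 rose and 1 fell, with a median log2 fold change of 2.88, and the summed level went from 753 to 1222 CPM to 3589 to 7979 CPM. The acetylcholine-synthesising enzyme ChAT had 53.3, 79.8, 105, 32.1 and 117 CPM at 30 h and 565, 594, 1191, 1634 and 502 CPM in adults. All adult values exceeded the pupal range (log2 fold change 3.54, SE 0.55, edgeR adjusted p = 2.63e-06). Its vesicular transporter VAChT, which lies in the first intron of ChAT and shares an exon with it, so that their reads cannot be fully told apart, rose from 87.8 ± 37.7 to 413 ± 89.5 CPM. The choline transporter ChT went from 10.1 ± 7.47 to 189.6 ± 61.7 CPM, and the acetylcholine-degrading enzyme Ace from 64.4 ± 69.1 to 767 ± 299 CPM (SD, n = 5 each). All 4 cholinergic genes therefore passed the test in the same direction. Ddc, the decarboxylase that completes dopamine and serotonin synthesis, had 14.8, 14.9, 2.47, 4.46 and 31.2 CPM at 30 h and 960.0, 831, 798, 827 and 884 CPM in adults. The adult libraries were close to each other and far above the pupal ones (log2 fold change 5.99, SE 1.16, edgeR adjusted p = 0.00014).

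Gad1, the enzyme that makes GABA and a marker of other neurons, had 0.389, 7.87, 0, 5.10 and 32.8 CPM at 30 h and 425, 656, 2654, 1275 and 168 CPM in adults. The adult values varied more than those of ChAT but did not meet the pupal ones, and the log2 fold change was 6.82 (with SE 1.15 and edgeR adjusted p = 1.55e-05). VGlut, of glutamate neurons, was at 18.4 and 40.8 CPM and Vmat, of monoamine neurons, at 11.7 and 261 CPM, and neither was called. Markers of other neuron types were higher in adults as a sum (median 342 and 1052 CPM), but that sum contains Gad1 itself. Gad1 made up 2654 of 3535 CPM in adult replicate 3 and 168 of 1052 CPM in adult replicate 5. It was the only one of the 9 tested markers called higher. The part of such neurons in the rise of Gad1 and Ddc was not tested. The dopamine transporter DAT was the member that fell, with 256 ± 182 CPM at 30 h and 43.5 ± 68.0 CPM in adults (SD, n = 5 each), and its call was lost in 6 of the 10 fits that left out a library. Of 33 neuropeptide and peptide-processing genes 5 rose and none fell (median log2 fold change 1.88 with bounds and 1.93 as fitted). The peptide sNPF, which Kenyon cells release together with acetylcholine, had 6.93, 7.20, 24.9, 49.8 and 11.6 CPM at 30 h and 526, 441, 1247, 844 and 205 CPM in adults. No libraries overlapped (log2 fold change 5.02, SE 0.93, edgeR adjusted p = 7.7e-05). The processing enzymes Pal2, amon and Phm rose alongside it, with log2 fold changes of 3.14 (SE 0.36), 1.93 (SE 0.49) and 1.11 (SE 0.31).

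Receptors for transmitters also rose, with an exception among the nicotinic subunits. Of 23 ionotropic receptor genes tested 6 rose and 1 fell, and of 24 metabotropic receptor genes 7 rose and none fell, with median log2 fold changes of 0.85 and 1.52. The nicotinic subunits nAChRbeta1 and nAChRalpha6 rose from 596 ± 309 to 2029.7 ± 389.5 CPM and from 327 ± 83.6 to 761 ± 79.5 CPM (SD, n = 5 each). In contrast nAChRalpha2 had 447, 461, 558, 546 and 467 CPM at 30 h and 118, 205, 239, 95.4 and 141 CPM in adults. All adult libraries were below all pupal ones (log2 fold change -1.64, SE 0.33, edgeR adjusted p = 0.000213). Inhibitory receptors rose: Rdl, the GABA-A receptor subunit, from 1266 ± 639 to 5206 ± 1624 CPM, GluClalpha, a glutamate-gated chloride channel, from 114 ± 91.9 to 771 ± 160.1 CPM, and GABA-B-R1 from 77.2 ± 37.5 to 414 ± 115 CPM (SD, n = 5 each). The pH-gated chloride channel pHCl-1 had a log2 fold change of 4.77 (with SE 1.59 and edgeR adjusted p = 0.0368), lost in 8 of the 10 fits that left out a library.

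Among amine receptors, Octbeta1R, an octopamine receptor, had 21.4, 20.8, 69.1, 17.3 and 57.1 CPM at 30 h and 891, 1006, 1486, 1107 and 594 CPM in adults. The separation between groups was wide compared with the spread inside them (log2 fold change 4.78, SE 1.27, edgeR adjusted p = 0.00645). DopEcR, which binds dopamine and ecdysteroids, rose from 163 ± 39.8 to 769 ± 183 CPM, and Dop2R, the inhibitory dopamine receptor, from 112 ± 15.7 to 428 ± 284 CPM (SD, n = 5 each). The call for Dop2R was lost when 1 of the 10 libraries was left out. Dop1R1, the learning receptor of Kenyon cells, was at 216 CPM at 30 h and 268 CPM in adults and did not pass the test. Of 35 peptide receptors tested 1 rose and 2 fell. The falls, ETHR and RYa-R, lost their calls in 4 and 9 of the 10 fits that left out a library, at most 1 of them was called in any of these fits, and none was with only the 10 libraries. Without 30 h replicate 2, 2 peptide receptors rose.

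Ion channels and pumps that set excitability rose as well. Of 20 potassium channel genes 6 rose and none fell, and of 35 sodium, calcium and other channels and pumps 13 rose and none fell, with median log2 fold changes of 1.17 and 1.42. The second list summed to 5317 to 6484 CPM at 30 h and 16391 to 33699 CPM in adults, a ratio of medians of 4.27. The calcium-activated potassium channel slo had 132, 129, 131, 49.4 and 229.9 CPM at 30 h and 1017, 776, 1100.0, 873 and 438 CPM in adults. The lowest adult library stayed above the highest pupal one (log2 fold change 2.65, SE 0.44, edgeR adjusted p = 1.26e-05). Hk, the beta subunit of Shaker channels, rose from 154 ± 71.1 to 788 ± 91.5 CPM and the Shaker regulator qvr from 125 ± 30.8 to 468 ± 121 CPM (SD, n = 5 each). The channel Sh itself, at 1370.0 and 1999 CPM, and Shab, at 114 and 262 CPM (edgeR adjusted p = 0.0819), did not pass the test.

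The sodium channel para rose from 266 ± 50 to 724 ± 146 CPM and the presynaptic calcium channel cac from 207 ± 66.9 to 568 ± 199 CPM (SD, n = 5 each). The hyperpolarisation-activated channel Ih had 66.8, 50.4, 14.6, 63.6 and 50.5 CPM at 30 h and 1823, 1169, 1429, 977 and 974 CPM in adults. Adult libraries were all far above the pupal range, with a log2 fold change of 4.70 (with SE 0.53 and edgeR adjusted p = 1.39e-09). Ion homeostasis genes were among the largest rises. The sodium/calcium-potassium exchanger Nckx30C had 15.1, 7.87, 46, 0.811 and 35.5 CPM at 30 h and 2090.2, 1155, 1917, 1561 and 1188 CPM in adults. Its groups were far apart (log2 fold change 6.23, SE 1.56, edgeR adjusted p = 0.00365). The potassium-chloride cotransporter kcc, which sets the chloride gradient used by GABA receptors, rose from 35.2 ± 29.5 to 993 ± 513 CPM. The sodium pump subunits Atpalpha and nrv3 rose together, Atpalpha from 1777, 1439, 1939, 1713 and 1538 CPM to 7431, 6581, 12758, 10186 and 4387 CPM (log2 fold change 2.30, SE 0.28, edgeR adjusted p = 1.22e-08) and nrv3 from 1214 ± 149 to 6073 ± 1863 CPM (SD, n = 5 each). For both, every adult library was above every pupal one.

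Some memory genes were already expressed at 30 h and others had few or no counts there. Of 38 cAMP, calcium and memory signalling genes tested 14 rose and 3 fell, with a median log2 fold change of 1.26, and the rises ranged from 10 to 14 when each library was left out. The calcium-dependent adenylyl cyclase rut, required for olfactory memory, had 18.1, 14.2, 5.70, 7.99 and 26.2 CPM at 30 h and 196, 114, 138, 112 and 60 CPM in adults. Adult libraries lay above all pupal ones (log2 fold change 3.10, SE 0.83, edgeR adjusted p = 0.00685). The cAMP phosphodiesterase dnc was already at 775 ± 142 CPM at 30 h and at 1289 ± 237 CPM in adults (SD, n = 5 each, log2 fold change 0.73, SE 0.24, edgeR adjusted p = 0.0350), a call lost in 5 of the 10 fits that left out a library. The protein kinase A catalytic subunit Pka-C1 was at 2724 and 1689.6 CPM and did not pass the test. Pka-C3, another catalytic subunit, had no count in any 30 h library and 270.5, 86.5, 191, 242 and 3.46 CPM in adults. It was at least 666-fold higher in adults against the mean floor of 3 counts per library (0.238 CPM), at an edgeR adjusted p of 0.00241, although the adult library of replicate 5 was far below the others.

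Calcium signalling genes rose with them. Calmodulin, Cam, went from 1588 ± 425 to 6261 ± 3052 CPM, the protein kinase C gene Pkc53E from 284 ± 70.1 to 1076 ± 249 CPM and CaMKII from 279 ± 81.9 to 675 ± 318 CPM (SD, n = 5 each). The libraries overlapped for CaMKII (323 CPM in an adult library and 409 CPM in a pupal one) and not for Cam and Pkc53E. The translational regulator orb2, needed for long-term memory, rose by 1.95 on the log2 scale (SE 0.49). Akap200, a scaffold that anchors protein kinase A and binds actin, moved the other way, with 1309.5, 966, 1255, 1079 and 1046 CPM at 30 h and 269, 86.4, 97.8, 69.8 and 87.5 CPM in adults. The groups were clearly apart (log2 fold change -3.21, SE 0.27, edgeR adjusted p = 7.93e-14).

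Activity-regulated genes and ecdysone-response genes included switches between near absence and clear expression. Of 10 activity-regulated genes 3 rose, or 1 without 30 h replicate 3, and CG17778 lost its call in 4 of the 10 fits that left out a library. The immediate-early gene sr, an Egr homolog, had no count in the 30 h libraries and 20.3, 39.1, 64.3, 52.6 and 20.3 CPM in adults, at least 165-fold higher (edgeR adjusted p = 0.00233). Hr38, the NR4A nuclear receptor induced by neuronal activity, had 2.65, 0, 0, 18.4 and 0 CPM at 30 h and 662, 583, 237, 41 and 806 CPM in adults. All adult libraries were higher, but the spread was wide, and the call (log2 fold change 6.77, SE 2.13, edgeR adjusted p = 0.0258) was lost when 30 h replicate 1, 2, 3 or 5 was left out, at adjusted p-values of 0.0580 to 0.0613.

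The steroid hormone ecdysone drives metamorphosis through a cascade of nuclear receptors. Of 30 ecdysone-response and nuclear receptor genes tested 4 rose and 3 fell, with a median log2 fold change of -0.03 with bounds and 0.05 as fitted. Hr4, an early-late gene of the cascade, had 1195, 718, 763, 165 and 1078 CPM at 30 h and 0, 3.53, 11.7, 1.58 and 0 CPM in adults. It was nearly absent from every adult library (log2 fold change -7.80, SE 0.83, edgeR adjusted p = 2.15e-10). ftz-f1, the receptor that gives competence for later ecdysone pulses, had 0.234, 0.0735, 3.99, 0 and 0.125 CPM at 30 h and 369, 178, 214, 124 and 288 CPM in adults, a log2 fold change of 8.02 (with SE 1.69 and edgeR adjusted p = 0.000517). Kr-h1, a zinc finger effector of juvenile hormone, showed the same kind of switch, with 0.0779 CPM in the first 30 h library, 0 in the other pupal libraries and 237, 127, 103, 97.9 and 76.6 CPM in adults (edgeR adjusted p = 3.91e-06). Eip93F rose from 238 ± 92.6 to 769.8 ± 231 CPM, while Hr51, also called unfulfilled and required for axon growth in the mushroom body, fell from 712 ± 245 to 277 ± 107 CPM (SD, n = 5 each, log2 fold change -1.36, SE 0.29, edgeR adjusted p = 0.000536). The ecdysone receptor EcR was at 188 and 115 CPM and did not pass the test.

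**Figure D3:**
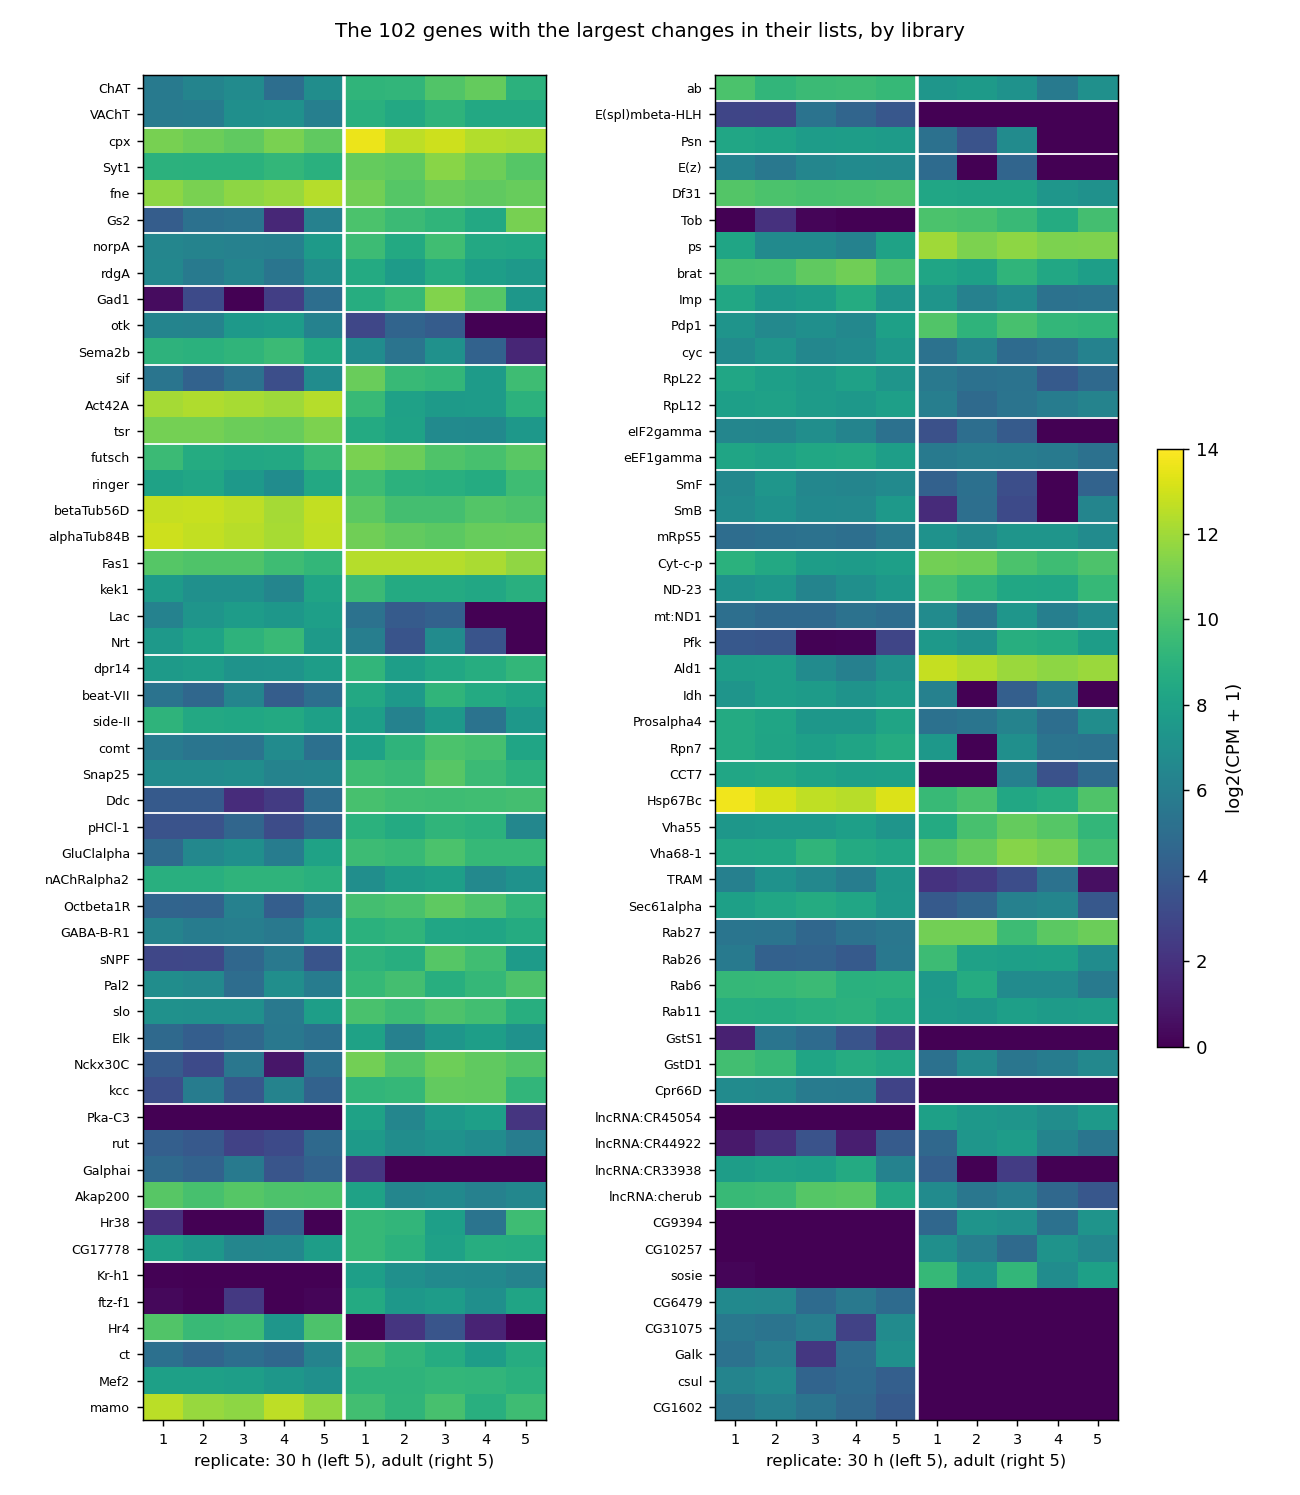
Level of 102 genes in the 10 libraries as log2(CPM + 1), with genes in rows grouped by list and libraries in columns. The genes are the strongest non-overlapping changes of each list and of all genes tested. Because only genes without overlap were drawn, the separation of the 5 adult columns from the 5 columns of 30 h follows from that choice.

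Transcription factors that set Kenyon cell identity were expressed at both stages. The selector genes ey (472 and 369 CPM), toy (607 and 477 CPM) and dac (304 and 168 CPM, edgeR adjusted p = 0.0829) did not pass the test, and Mef2 rose from 205 ± 53.4 to 555 ± 50.8 CPM (SD, n = 5 each). Of 35 temporal and identity factors 4 rose and 3 fell (5 without adult replicate 3). The largest rise was in the homeodomain gene ct, at 35.6, 22.7, 32.1, 24.4 and 75.9 CPM in pupae and 888, 603, 411, 219 and 409 CPM in adults. Its groups did not overlap (log2 fold change 3.73, SE 0.70, edgeR adjusted p = 9.56e-05). The homeodomain factor pros also rose, with 2903, 2198, 2589, 2569.6 and 3529 CPM at 30 h and 8691, 6536, 6199, 5839 and 7502 CPM in adults (log2 fold change 1.33, SE 0.24, edgeR adjusted p = 5.34e-05).

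The genes that fell include regulators of Kenyon cell temporal fate. The zinc finger gene mamo had 5988, 3683, 3138, 6301 and 3435 CPM at 30 h and 857, 561, 957, 456 and 798 CPM in adults. The fall was seen in every library (log2 fold change -2.64, SE 0.34, edgeR adjusted p = 3.24e-08). The BTB zinc finger gene ab had 1068, 596, 755, 783 and 677 CPM at 30 h and 162, 194, 139, 53.9 and 127 CPM in adults, a log2 fold change of -2.52 (with SE 0.40 and edgeR adjusted p = 4.75e-06). Imp, an RNA-binding protein whose level falls as mushroom body progenitors age, had 333, 188, 221, 395 and 157 CPM at 30 h and 156, 69.4, 107, 37.3 and 41.1 CPM in adults. The groups of Imp met almost end to end, with a log2 fold change of -1.66 (with SE 0.36 and edgeR adjusted p = 0.000755). chinmo, another temporal factor, rose by a log2 fold change of 0.84 (with SE 0.29 and edgeR adjusted p = 0.0484), a call lost in 8 of the 10 fits that left out a library.

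Notch pathway, chromatin and cell cycle genes fell without exception among the calls. Of 22 Notch pathway and E(spl) genes tested 8 fell and none rose (median log2 fold change -2.09 with bounds and -2.0 as fitted), while with only the 10 libraries 3 fell. kuz, the protease that cleaves Notch, fell from 578 ± 191 to 123 ± 58.9 CPM, and the co-activator mam from 309 ± 66.9 to 90.6 ± 40.9 CPM (SD, n = 5 each). The E(spl) repressors are direct Notch targets. E(spl)mbeta-HLH had 6.54, 6.40, 38.7, 23 and 12.7 CPM at 30 h and no count in adults, which made it at least 44.7-fold lower (edgeR adjusted p = 0.000328). Of 31 HMG, histone variant and chromatin genes 8 fell, among them HmgD, from 881, 735, 978, 730.3 and 882 CPM to 199, 241, 118, 189 and 192 CPM. That fall was many times the spread within either group (log2 fold change -2.17, SE 0.26, edgeR adjusted p = 4.66e-09). The chromatin decondensation protein Df31 had the same size of change, from 1071 ± 101 to 235 ± 80.2 CPM (SD, n = 5 each, log2 fold change -2.19, SE 0.23). Of 41 DNA replication and cell cycle genes 8 fell from low levels, and with only the 10 libraries 1 fell. CycB3, a mitotic cyclin, had 12.9, 18.4, 4.62, 43.7 and 10.3 CPM at 30 h and no count in adults. It stood beside the 10 neuroblast and progenitor markers, 6 of which fell (1 with only the 10 libraries), and whose adult sum was 0 to 24.3 CPM. The part of progenitor RNA in these falls was not tested.

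RNA-binding proteins moved in both directions, 5 up and 7 down of 36. Tob, a BTG-family anti-proliferative protein that binds deadenylases, had 0, 2.94, 0.127, 0 and 0 CPM at 30 h and 1061, 976, 715, 388 and 911 CPM in adults. It was among the clearest switches of the comparison (log2 fold change 10.32, SE 1.88, edgeR adjusted p = 9.72e-05). ps, a Nova-family splicing regulator, had 304, 103, 101, 73.4 and 268 CPM at 30 h and 4130.4, 2416, 3128, 2394 and 2501 CPM in adults, again with no overlap (log2 fold change 4.10, SE 0.72, edgeR adjusted p = 3.37e-05). The members that fell included the ELAV-family gene fne (3572 ± 1206 to 1674 ± 317 CPM), the translational repressor brat (1286 ± 481 to 334 ± 136 CPM) and Fmr1, the fragile X homolog (224 ± 72.3 to 80.0 ± 42.3 CPM, SD, n = 5 each). The neuronal marker elav was at 725 and 607 CPM and did not pass the test. The circadian transcription factor Pdp1 rose from 141 ± 62.1 to 779 ± 281 CPM (SD, n = 5 each).

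Protein synthesis genes were the largest group to fall. Of 85 cytoplasmic ribosomal protein genes tested 57 were lower in adults and none was higher, with a median log2 fold change of -1.33. Their summed level was 25791 to 35815 CPM at 30 h and 6985 to 17704 CPM in adults, 0.478 of the pupal median. The count of falls was 42 to 63 when each library was left out and 33 with only the 10 libraries, where no gene rose. RpL22 had 314, 236, 195, 253 and 157 CPM at 30 h and 50.5, 36.3, 39.9, 14.9 and 26.5 CPM in adults, and no adult library reached the lowest pupal one. Translation factors followed, with 11 of 47 lower and none higher. The elongation factor eEF1gamma fell from 294, 257, 321, 349 and 228 CPM to 54, 61.8, 60.3, 53.2 and 36 CPM (log2 fold change -2.45, SE 0.28, edgeR adjusted p = 1.74e-09). The 3 further elongation genes eEF1alpha2, eEF1alpha1 and eEF1beta fell with log2 fold changes of -1.47 (SE 0.27), -1.76 (SE 0.47) and -1.89 (SE 0.38). The translational inhibitor Thor, the fly 4E-BP, had 49.1, 33, 4.94, 3.65 and 13.5 CPM at 30 h and no count in adults, at least 53.2-fold lower (edgeR adjusted p = 0.0119).

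Of 25 ribosome biogenesis factors edgeR called 0, with 5 at an unadjusted p under 0.05, where DESeq2 called 1 higher and 1 lower and edgeR with only the 10 libraries 1 higher. Of 24 core spliceosome genes 12 fell and none rose (median log2 fold change -1.39), and 2 did with only the 10 libraries. SmF, a core Sm protein, was at 105 ± 32.4 CPM at 30 h and 16.9 ± 13.1 CPM in adults (SD, n = 5 each), with an edgeR adjusted p of 0.00232 over all libraries and 0.171 over 10. The splicing factor Prp8 fell from 373 ± 55.6 to 91.2 ± 57.9 CPM under both fits (edgeR adjusted p = 2.56e-05 and 0.0150). Mitochondrial ribosomal proteins differed from cytoplasmic ones in these counts, with 2 of 72 higher (1 in 7 of the 10 fits that left out a library), none lower and a median log2 fold change of 0.09.

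Genes of protein folding, secretion and degradation were lower in adults. Of 34 heat shock proteins and chaperones 16 fell and none rose (median log2 fold change -1.07 with bounds and -0.81 as fitted). The falls numbered 12 to 15 when each library was left out. The small heat shock gene Hsp67Bc had 13474, 9058, 6510.4, 5715 and 9889 CPM at 30 h and 681, 1011, 332, 416 and 1114 CPM in adults. All adult values lay well under the pupal minimum (log2 fold change -3.65, SE 0.41, edgeR adjusted p = 7.98e-10). Its neighbours Hsp27 and Hsp23 in the same gene cluster fell from 5518 ± 2175 to 558 ± 319 CPM and from 8215 ± 3642 to 2542 ± 912 CPM (SD, n = 5 each). All 8 subunits of the CCT chaperonin, the ring that folds actin and tubulin, were lower: CCT4 fell with a log2 fold change of -1.66 (SE 0.33) and CCT5 of -3.16 (SE 0.69), and CCT8 had the smallest fall, -1.09 (SE 0.36). The calls for CCT2, CCT5, CCT6, CCT7 and CCT8 were not made with only the 10 libraries, at edgeR adjusted p-values of 0.361, 0.157, 0.0780, 0.0846 and 0.242. Those for CCT2, CCT8 and CCT6 were also lost in 7, 6 and 1 of the 10 fits that left out a library.

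Endoplasmic reticulum genes fell as a block, 14 of 29 with none higher, and their sum went from 10009 to 11853 CPM to 3655 to 4861 CPM. The BiP chaperone Hsc70-3 had 1270.0, 1168, 1918, 1943 and 1064 CPM at 30 h and 186, 342, 378, 307 and 213 CPM in adults. There was no overlap (log2 fold change -2.37, SE 0.27, edgeR adjusted p = 9.58e-10). Pdi, which forms disulphide bonds, fell from 743 ± 146 to 109.6 ± 62.8 CPM, the calcium-binding chaperone Calr from 1954 ± 457 to 485 ± 228 CPM and the translocon pore Sec61alpha from 285 ± 79.5 to 40.3 ± 32.8 CPM (SD, n = 5 each). Of 37 proteasome subunits 16 fell and none rose (median log2 fold change -1.06 with bounds and -1.21 as fitted). With only the 10 libraries 5 of them fell, and without 30 h replicate 2 there were 9. Rpn6, a lid subunit, fell from 542 ± 54.6 to 189.6 ± 51.1 CPM under both fits (edgeR adjusted p = 2.38e-06 and 0.00220).

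Genes of glycolysis and of the respiratory chain rose. Of 32 glycolysis, trehalose and citric acid cycle genes 19 rose and 1 fell, with a median log2 fold change of 1.64 with bounds and 1.42 as fitted. The sum was 4673 to 6968 CPM at 30 h and 21792 to 37423 CPM in adults, a ratio of medians of 4.52. Ald1, the aldolase, had 224, 228, 108, 66.2 and 137 CPM at 30 h and 6913, 5271, 3868, 3163 and 3772 CPM in adults. Adult libraries were far above the pupal range, a log2 fold change of 4.91 (with SE 0.48 and edgeR adjusted p = 1.58e-11). Pyruvate kinase, PyK, had 67.4, 98.3, 84.6, 42.2 and 73.4 CPM at 30 h and 1946, 1724, 2029.6, 1809.8 and 1609.7 CPM in adults, with little spread inside either group (log2 fold change 4.64, SE 0.77, edgeR adjusted p = 1.16e-05). Successive steps of the pathway from hexokinase to pyruvate kinase were among the rises, with log2 fold changes of 2.59 (SE 0.62) for Hex-A, 2.64 (SE 0.63) for Pgi, 5.38 (SE 1.6) for Pfk, 3.02 (SE 0.50) for Tpi, 3.91 (SE 0.40) for Gapdh1, 2.24 (SE 0.39) for Pgk, 4.13 (SE 0.76) for Pglym78 and 2.38 (SE 0.33) for Eno. Gapdh1 and Gapdh2 are close paralogs that may share reads. Among citric acid cycle genes, Idh3a rose with 1.72 (SE 0.42) and Mdh2 with 0.95 (SE 0.32), the latter call lost in 7 of the 10 fits that left out a library. The cytosolic Idh, an NADP-dependent isocitrate dehydrogenase, was the member that fell (log2 fold change -2.76, SE 0.68, edgeR adjusted p = 0.00321), a call not made with only the 10 libraries (0.231).

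Of 75 nuclear genes for the respiratory complexes 24 rose and none fell, with a median log2 fold change of 0.95, and 69 had a log2 fold change above 0. The count rested on single libraries: it was 8 without 30 h replicate 4, 10 without 30 h replicate 3, 12 without adult replicate 1, 12 without adult replicate 5 and at most 31. Cytochrome c, Cyt-c-p, rose from 483, 348, 224, 203 and 238 CPM to 2085, 1917, 1062, 803 and 1090.4 CPM. The groups did not overlap (log2 fold change 2.22, SE 0.43, edgeR adjusted p = 0.000171). The complex I subunit ND-23 rose from 139 ± 39.3 to 541 ± 232 CPM (SD, n = 5 each), and UQCR-C1 of complex III rose by 0.95 on the log2 scale (SE 0.24). All 13 genes encoded by mitochondrial DNA had a log2 fold change above 0, with a median of 2.13, and 8 were called. Adult replicate 5 was the highest library of that list, with 4.09% of its counts from these genes against 0.679% to 2.25% in the other adult libraries and 0.303% to 1.01% at 30 h, and without it 5 were called. The part of RNA quality in this share was not tested.

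Genes of the V-ATPase, the proton pump that acidifies synaptic vesicles and lysosomes, rose. Of 46 V-ATPase, lysosome and autophagy genes 14 rose and none fell, and 13 of those 14 were V-ATPase genes, the other being the autophagosome protein Atg8a (1429.8 ± 358 to 3230.5 ± 968 CPM, SD, n = 5 each). The subunits Vha55 and Vha68-1 of the ATP-hydrolysing head had the largest changes, Vha55 with 170.4, 186, 192, 235 and 155 CPM at 30 h and 370.0, 957, 1622, 1285 and 621 CPM in adults (log2 fold change 2.37, SE 0.42, edgeR adjusted p = 4.06e-05). Adult libraries varied but all were above the pupal ones. Of 26 Rab small GTPases, 3 rose and 4 fell. The 3 that rose act in regulated secretion: Rab3 and Rab26 of synaptic vesicles, with log2 fold changes of 2.12 (SE 0.40) and 3.40 (SE 0.70), and Rab27 of secretory granules, which had 43.1, 41.4, 24.6, 38.3 and 46.1 CPM at 30 h and 2056, 2077, 771, 1434 and 1838 CPM in adults. Rab27 was far apart between the groups (log2 fold change 5.40, SE 1.03, edgeR adjusted p = 0.000116). The falls included Rab11 of recycling endosomes (435 ± 54.9 to 207 ± 25.0 CPM) and Rab6 of the Golgi (599 ± 120.3 to 171 ± 135 CPM, SD, n = 5 each).

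Some of the largest changes of all lay outside these programmes. Among genes with no count at 30 h, CG9394 had 24.3, 151, 127, 36.3 and 153 CPM in adults, at least 413-fold higher, and CG10257 had 125, 63.4, 27.5, 147 and 88.8 CPM, at least 379-fold higher. sosie, a membrane protein gene, had 0.156 CPM in the first 30 h library, 0 in the other pupal libraries and 675, 149, 626, 109.8 and 252 CPM in adults (edgeR adjusted p = 0.00106). Among genes with no count in any adult library, the galactokinase Galk had 38.3, 61.7, 3.86, 31.1 and 129.8 CPM at 30 h, the arginine methyltransferase csul had 79.8, 101, 22, 28.5 and 18.2 CPM, which made them at least 135-fold and 128-fold lower, and CG6479 was at least 151-fold lower. The cuticle protein gene Cpr66D was at least 161-fold lower, from a mean of 63.1 ± 39.9 CPM (SD, n = 5). The glutathione transferase GstD1 fell without vanishing, from 872, 682, 302, 405 and 333 CPM to 37, 94.9, 44.3, 58.6 and 90.5 CPM (log2 fold change -3.0, SE 0.44, edgeR adjusted p = 7.99e-07). Of 24 immune effector and recognition genes edgeR called 0, with 8 at an unadjusted p under 0.05, and DESeq2 called 1 lower.

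Long noncoding RNAs took 46387 to 92231 CPM at 30 h and 60417 to 109248 CPM in adults, with 10 of 463 tested higher and 15 lower. The higher count was 4 without 30 h replicate 3 and 5 without 30 h replicate 1, 2 or 4, and with only the 10 libraries 6 were higher and 6 lower. lncRNA:CR45054 had no count at 30 h and 251, 175, 159, 115 and 184 CPM in adults, at least 742-fold higher (edgeR adjusted p = 0.000153). lncRNA:cherub, first described in asymmetrically dividing neuroblasts, had 699.6, 742, 1287, 1355 and 353 CPM at 30 h and 108, 46.6, 65.8, 25.5 and 13.2 CPM in adults. No adult library reached the pupal range (log2 fold change -4.10, SE 0.77, edgeR adjusted p = 9.63e-05). The heat-responsive RNA lncRNA:Hsromega rose from 8775 ± 2331 to 20209 ± 2366 CPM (SD, n = 5 each, log2 fold change 1.2, SE 0.28).

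Means at the earlier pupal stages, which were not part of the comparison, are given here as a description with no test. Of genes called higher in adults 57.2% had a higher mean at 27 h than at 18 h, of genes called lower 35.8%, and of all genes tested 44%. The complexin gene cpx had means of 1217 CPM at 18 h, 1853 CPM at 27 h, 1884 CPM at 30 h and 7255 CPM in adults. Rdl had 405 CPM at 18 h, 840.4 CPM at 27 h, 1266 CPM at 30 h and 5206 CPM in adults. For both, the adult mean was far above every pupal mean given. Ald1 was at 107 CPM at 18 h, 122 CPM at 27 h and 153 CPM at 30 h, and Ddc at 8.19, 13.4 and 13.6 CPM. Among genes lower in adults, tsr was at 3476, 2302 and 2056 CPM at those stages and Act42A at 7317, 4811 and 4738 CPM. Hr4 was highest at 30 h among the stages given, with means of 78.9 CPM at 18 h, 410.1 CPM at 27 h, 784 CPM at 30 h and 3.36 CPM in adults.

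**Figure D4:**
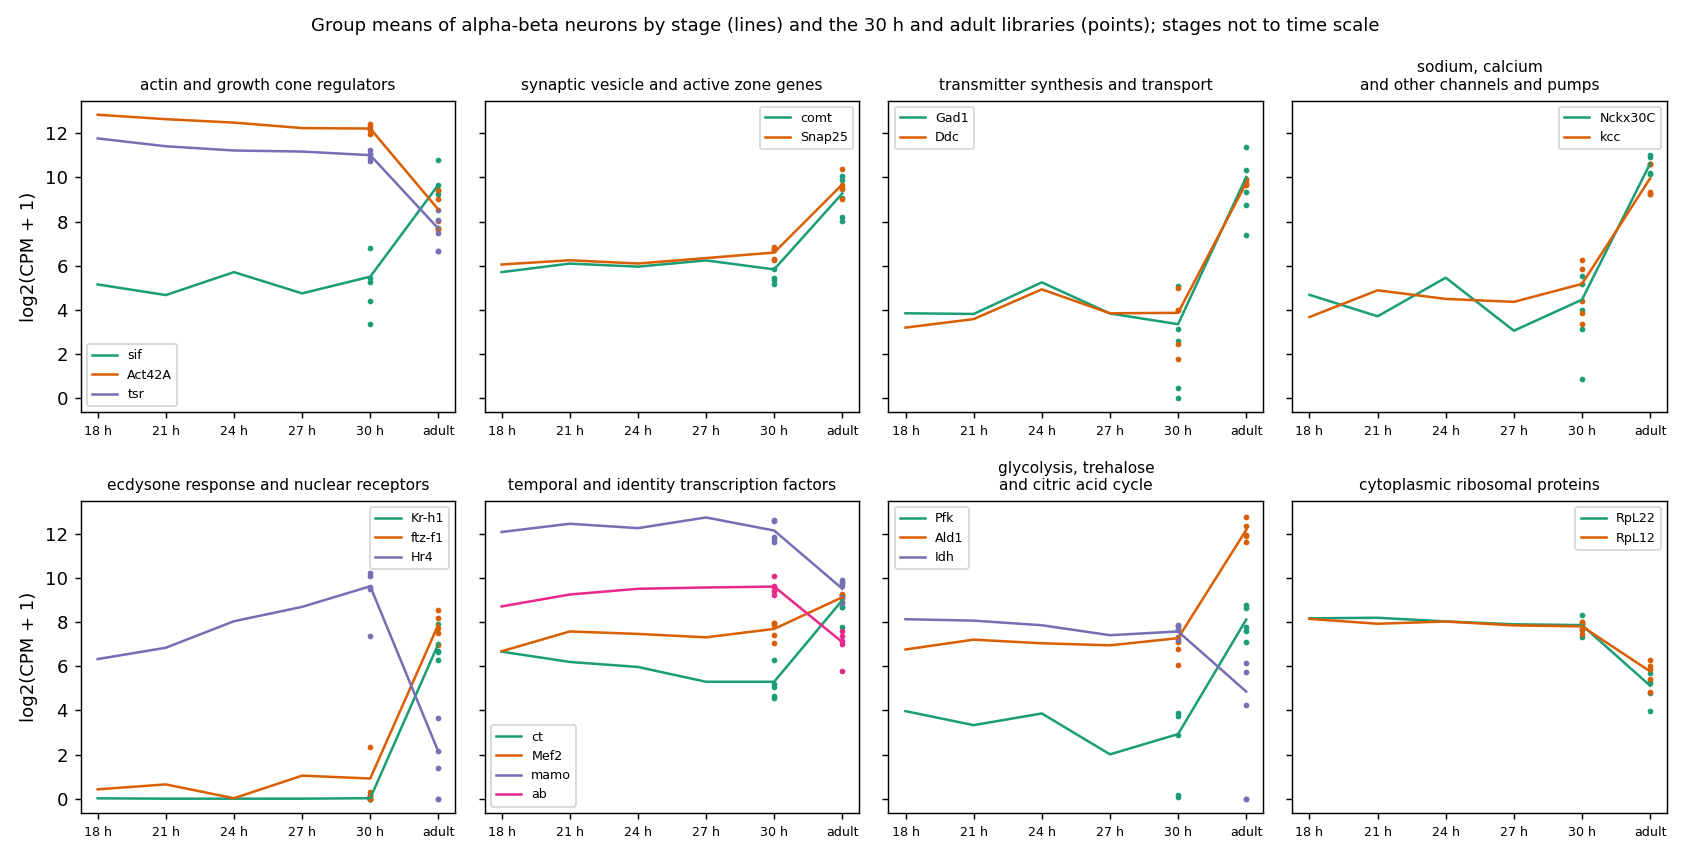
Level of genes from 8 lists as log2(CPM + 1) against stage, with lines through the group means of alpha-beta neurons at 18, 21, 24, 27 and 30 h after pupa formation and in adults, and points for the single libraries at 30 h and in adults. Hr4 has a mean of 78.9 CPM at 18 h and 784 CPM at 30 h and stands at 3.36 CPM in adults, whereas Ald1 is at 107 CPM at 18 h and 4598 CPM in adults.

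Gamma neurons, an earlier-born Kenyon cell type whose axons regrow after pruning, were measured at the same stages and show how far these changes were shared. In their own comparison of adults with 30 h, 510 genes (5.06%) were called higher and 522 (5.18%) lower. Calls in the same direction numbered 308 among the higher genes, 65.3% of the alpha-beta and 60.4% of the gamma calls, and 265 among the lower genes, 33.7% and 50.8%. Synaptic genes rose in gamma neurons too (21 of 37, median log2 fold change 1.49), as did glycolysis genes (17 of 32), while 12 of 85 cytoplasmic ribosomal proteins fell, with a median of -0.57 against -1.33. The edgeR test of the difference between the cell types called 67 of all genes tested (0.665%). It called 0 of the 85 ribosomal proteins, 21 of which had an unadjusted p under 0.05, so their unequal falls were not shown to differ.

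Of 35 temporal and identity factors that test called 5, against this background. ab fell in alpha-beta neurons and had a log2 fold change of 0.94 in gamma neurons (edgeR adjusted p of the difference 0.000232), and Imp had 0.82 in gamma neurons (0.00489). mamo fell by 2.64 on the log2 scale in alpha-beta neurons and had -0.36 in gamma neurons (edgeR adjusted p of the difference 0.00352). The rise of ct (log2 fold change 3.73) and of pros (1.33) was met by 0.03 and -0.17 in gamma neurons (0.0330 and 0.0139). Outside that list, GstD1 fell in alpha-beta neurons and had 0.31 in gamma neurons (edgeR adjusted p of the difference 0.000634). In gamma neurons kuz had -0.67 (0.0472) and betaTub56D had -1.12 (0.00337), both against a larger fall in alpha-beta neurons. Hsp67Bc fell more in gamma neurons, with a log2 fold change of -5.76 against -3.65 (0.0330). The peptide receptor ETHR fell in both cell types and also differed between them (0.000412), although its alpha-beta call was lost in 4 of the 10 fits that left out a library.

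**Figure D5:**
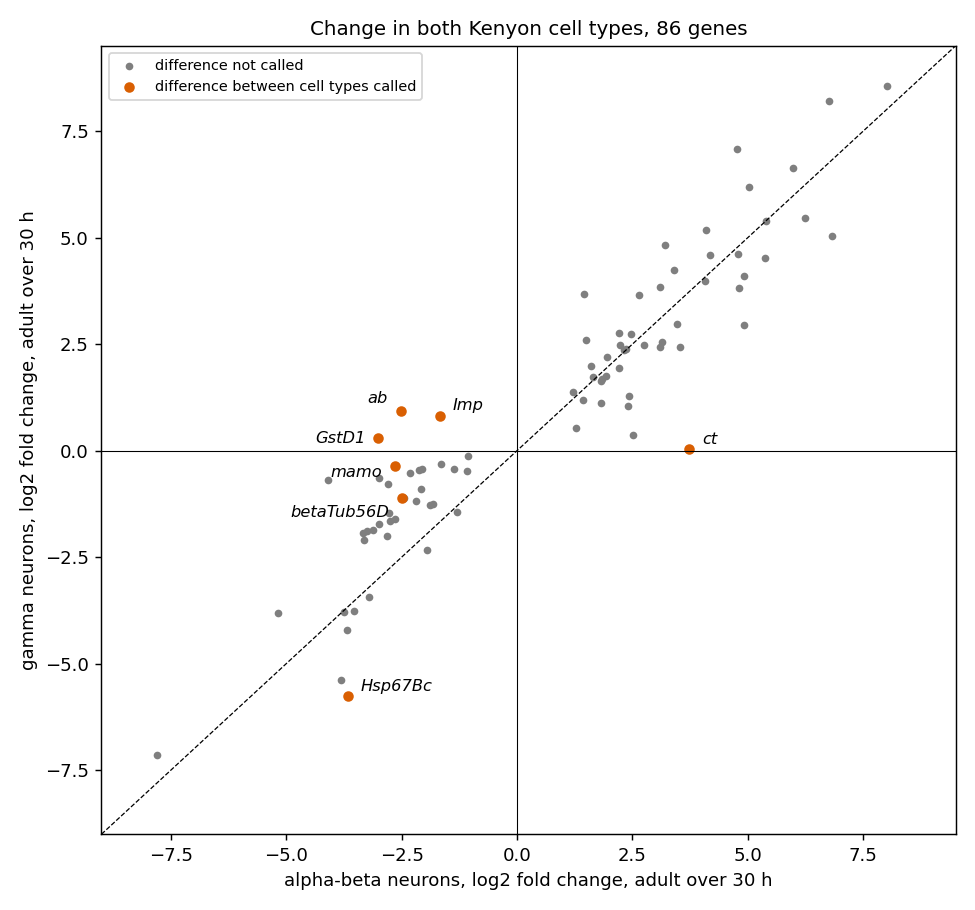
Log2 fold change (adult over 30 h) in alpha-beta neurons on the horizontal axis against that in gamma neurons on the vertical axis for 86 named genes, with the 7 genes whose difference between cell types was called labelled by name. ab and Imp lie below 0 on the horizontal axis and above 0 on the vertical axis, ct lies near 0 on the vertical axis, and Hsp67Bc lies below the diagonal. The genes drawn were chosen for large alpha-beta changes, so the number labelled does not stand for all genes.

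Of the 102 genes with the strongest non-overlapping changes in their lists, 86 were also called with only the 10 libraries and 101 by DESeq2. Whichever library was left out, 89 were called. These genes were chosen among the calls for large changes without overlap, so their counts do not stand for all calls. Of all 472 higher and 786 lower calls, 385 and 284 were made again with only the 10 libraries. Those called whichever library was left out numbered 303 and 514. Symbols were used as deposited. The counting is not stated to use strand, and 34 of the 102 genes share exon sequence with another annotated gene, 11 on the same strand and 24 on the opposite one. Those on the same strand are ChAT, VAChT, Imp, Kr-h1, RpL22, Tob, eIF2gamma, ftz-f1, futsch, sif and sosie. Akap200, Ald1, Ddc, Hr38, Hr4, ab and tsr are among those on the opposite strand. Reads of such pairs cannot be assigned with certainty.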

How the data were processed

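Alpha-beta neurons of Drosophila melanogaster were compared between 30 h after pupa formation and adults, 5 libraries each. The authors deposited, per the file headers, raw counts per gene and library for 12453 gene symbols, and these counts were the values tested. The same deposited table holds a normalized signal (counts divided by a size factor), a variance-stabilised log2 value and, for each of the authors' comparisons, a p-value, a log2 fold change and a pass mark. The log2 fold change and pass mark served only to count the authors' calls. STAR is named in the submitters' processing notes. Its version, the counting program, the strand setting, the genome build and the fly lines are not given in the sources used here. All columns were matched to samples by their names (0 columns were left without a sample).

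Two-sided quasi-likelihood F-tests of edgeR 4.0.16 (R 4.3.3) were run on all 58 libraries in 12 groups of cell type and stage, with TMM factors and filterByExpr (minimum count 10, minimum total 15), which kept 10072 genes. Calls were made at an adjusted p under 0.05 (Benjamini-Hochberg, over all genes tested). The common biological coefficient of variation was 1.34. Levels are TMM-scaled CPM, not corrected for gene length. The SE of a log2 fold change is its size over the root of its F value. Where all libraries of a group had 0 counts, a fold is a lower bound against the mean of the libraries' floors of 3 counts, 0.238 CPM at 30 h and 0.391 CPM in adults. These floors ran from 0.174 to 0.692 CPM per library and cover counting error only, since reads of amplified cDNA with no molecular identifiers cannot be counted as separate molecules. No pair of libraries within a group agreed within sampling noise (chi-square per degree of freedom 123 to 486 over 20 pairs). The script was tested on simulated counts.

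Lists of genes (50 in all, with 8 symbols matched through a RefSeq synonym and 19 not found in the table) were described by counts of calls and by medians, with no test of a list. The members and lists were chosen with earlier results of these data known. Genes given library by library were taken mainly from a rule: in each list, the 2 largest rises and 2 largest falls among called genes whose groups did not overlap and whose average log2 CPM was 4 or more, and over all genes the 6 largest rises and falls. Act5C, unc-104 and other list members are named by their means, whether called or not, and Ih, PyK, Atpalpha, HmgD, Hsc70-3, Thor, sr, pros and CycB3, also list members, were given library by library after their values had been seen. Alternatives were RLE and upper-quartile factors, other count filters, thinning, only the 10 libraries, DESeq2 1.42.0, limma-voom (limma 3.58.1) with sample weights, blocks for the replicate number or for sets of the sample-sheet number in the labels' library names, and leaving out each library in turn. Promoter motifs were not analysed here. Figures were drawn with matplotlib 3.10.9.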

Additional observations from a re-analysis of the deposited data

Results flagged for a closer look

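Each group of 5 libraries was examined for a single library standing apart by Dixon's 95% criterion, over 310 groups of values of the named genes and list sums. For independent normal values chance flags about 1 in 20 groups, and here 23 were flagged. CPM values need not be normal, so that rate may not hold for them. A group with counts in a single library, as for Kr-h1, sosie and Galphai, is always flagged. The gap to the next library is the reason in each case, and no explanation was tested.

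The 30 h library of replicate 5 stood apart in 6 of them. Its sum of mitochondrially encoded genes was 9517 CPM against 4054 CPM in the next library, and its sum of long noncoding RNAs 92231 against 56744 CPM. For single genes it had 142 CPM of GABA-B-R1 (next 74.5), 32.8 CPM of Gad1 (next 7.87), 75.9 CPM of ct (next 35.6) and 199 CPM of norpA (next 84.8).

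Other 30 h libraries stood apart as follows. Replicate 1 had 0.0779 CPM of Kr-h1 and 0.156 CPM of sosie, where the other libraries had 0. Replicate 2 had a sum of adhesion molecules of 5752 CPM (next 6694), 161 CPM of SmF and 2.94 CPM of Tob (next 0.127). Replicate 3 had a sum of secretory pathway genes of 11853 CPM (next 10470.2), 571 CPM of Vha68-1 (next 381) and 3.99 CPM of ftz-f1 (next 0.234). Replicate 4 had 18.4 CPM of Hr38 (next 2.65) and 619 CPM of Syt1 (next 503).

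Among adult libraries, replicate 1 stood apart with 269 CPM of Akap200 (next 97.8), 3.66 CPM of Galphai (next 0), 769 CPM of Rab26 (next 262) and 17.8 CPM of lncRNA:CR33938 (next 4.68). Replicate 3 had a sum of neuroblast and progenitor markers of 24.3 CPM (next 5.71). Replicate 4 had a sum of V-ATPase, lysosome and autophagy genes of 17863 CPM (next 22863) and 37.9 CPM of TRAM (next 8.81).

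For 12 of the 102 genes that the rule named, the change between 30 h and adults differed between alpha-beta and gamma neurons by the edgeR test of the difference. Over all 10072 genes tested, 67 (0.665%) were called. The rule chose genes for large alpha-beta changes, which enter the difference tested, so the count of 12 does not stand for all genes. The adjusted p-values were 0.000232 for ab, 0.000634 for GstD1, 0.00127 for CG6479, 0.00337 for betaTub56D, 0.00337 for sosie and 0.00352 for mamo. They were 0.00489 for Imp, 0.00518 for Galk, 0.0124 for csul, 0.0140 for CG1602, 0.0330 for Hsp67Bc and 0.0330 for ct.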

How the results depend on the processing

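The number of genes called, 1258 (472 higher and 786 lower in adults), moved most with the fit. DESeq2 called 2391 (863 higher, 1528 lower), of which 1235 were also called by edgeR, and limma-voom with sample weights called 1839 (750 higher, 1089 lower). With only the 10 libraries 758 were called (471 higher, 287 lower), so the lower calls were the more sensitive ones, and the cause was not tested. RLE factors, upper-quartile factors, thinning, a minimum count of 50 and no filter gave 1165 to 1382 calls. The median log2 fold change of the genes tested shifted by 0.13 with upper-quartile factors, 0.16 with no filter, -0.31 with limma-voom, -0.52 with the replicate block on 10 libraries, and -0.14 and -0.15 with the blocks on all libraries. Leaving out each library in turn gave 1043 to 1323 calls, 360 to 471 higher and 675 to 872 lower, and 303 of the higher and 514 of the lower genes were called in all 10 of these fits. The correlation of deviations of same-numbered libraries was 0.0124 to 0.0568, with a mean of 0.0343 against -0.00859 for other pairs. Of 5 adult libraries, 3 correlated best with their own number. Whether the replicate numbers pair the samples was not tested. With the replicate block, the 10 libraries gave 724 calls (444 higher, 280 lower) and all libraries gave 1411. A block for the sample-sheet set gave 1505. Depth limits low genes, since 3 counts came to 0.692 CPM in the shallowest adult library.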
